A study of Mus musculus with 18 samples.

Results

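The enzymes described here are 10 that detoxify quinones, carbonyls, epoxides and heme, or that feed those reactions: *Nqo1*, *Nqo2*, *Cbr1*, *Cbr3*, *Ephx1*, *Ephx2*, *Por*, *Ugdh*, *Hmox1* and *Blvrb*. They were taken by gene name from a read-count table of 35275 genes, and all 10 were found and passed the filter on low counts. The table holds 18 RNA-seq libraries of mouse malignant peripheral nerve sheath tumor (MPNST) cells, from 6 cell lines grown in 3 cultures each. The study asked how loss of p53 and loss of *Cdkn2a*, which encodes p16 and p19, differ in tumors that have also lost *Nf1*. Of the 6 lines, 3 carry the genotype Nf1-/-;p53-/- (Nf1-p53_DKO) and 3 the genotype Nf1-/-;Cdkn2a-/- (Nf1-Cdkn2a_DKO), so loss of *Nf1* is common to all of them.

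Each line was grown from a primary tumor raised by injecting adenovirus with Cas9, driven by a CMV promoter, and guide RNAs into the sciatic nerve of wild-type 129 Sv/Jae mice. The cells were untreated, and the age of the mice is not given in the sources used here. A line stands for a single tumor, and its cultures share that tumor, so genotypes were compared over 3 lines against 3. There is no library of cells with intact *Nf1*, p53 and *Cdkn2a*, and the labels call the cells mesenchymal.

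Quinones, epoxides and free heme are reactive, and cells convert them to products that can be conjugated or exported. NAD(P)H quinone dehydrogenases reduce quinones without releasing a semiquinone radical, carbonyl reductases reduce ketones and aldehydes, and epoxide hydrolases add water to epoxides. Heme oxygenase opens the heme ring to give biliverdin, iron and carbon monoxide, and biliverdin reductases take the next step. Many of these reactions draw on NADPH, and *Nqo1* and *Hmox1* are textbook targets of the transcription factor NRF2 (*Nfe2l2*), which binds antioxidant response elements with a small Maf partner. BACH1 represses through the same elements.

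A promoter window, from 250 bases before to 50 bases after a transcription start in RefSeq (GRCm38.p6), was at hand for 8 of the 10 genes, with 2 starts each for *Nqo2* and *Blvrb*. The windows of *Nqo1*, *Ephx1* and *Blvrb* are printed because these genes kept the genotypes apart in all lines, and that of *Ugdh* because it held the most matches to the response element among genes with a single window. Sequences run 5′ to 3′ on the strand of the gene, and capitals mark matches to the core of the antioxidant response element, TGANNNNGC, searched on both strands.
*Nqo1*, chr8:107403156-107403455, minus strand: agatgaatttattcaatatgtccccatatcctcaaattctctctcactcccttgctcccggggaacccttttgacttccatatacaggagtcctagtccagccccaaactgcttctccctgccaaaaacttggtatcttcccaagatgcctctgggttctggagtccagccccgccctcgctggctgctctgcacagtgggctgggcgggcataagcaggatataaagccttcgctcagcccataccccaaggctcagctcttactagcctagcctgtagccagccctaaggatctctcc
*Ephx1*, chr1:181017520-181017819, minus strand: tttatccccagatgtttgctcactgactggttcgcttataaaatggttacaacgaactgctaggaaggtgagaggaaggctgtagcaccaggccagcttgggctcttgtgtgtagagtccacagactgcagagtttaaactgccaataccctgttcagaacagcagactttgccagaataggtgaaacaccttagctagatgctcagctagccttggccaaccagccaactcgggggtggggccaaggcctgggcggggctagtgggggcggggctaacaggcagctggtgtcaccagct
*Blvrb*, chr7:27447728-27448027, plus strand: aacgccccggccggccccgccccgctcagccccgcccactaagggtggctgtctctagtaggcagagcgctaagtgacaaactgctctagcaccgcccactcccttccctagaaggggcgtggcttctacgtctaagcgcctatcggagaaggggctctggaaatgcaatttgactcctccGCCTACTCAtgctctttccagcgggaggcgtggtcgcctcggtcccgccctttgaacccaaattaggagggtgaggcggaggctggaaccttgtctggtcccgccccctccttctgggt
*Ugdh*, chr5:65435793-65436092, minus strand: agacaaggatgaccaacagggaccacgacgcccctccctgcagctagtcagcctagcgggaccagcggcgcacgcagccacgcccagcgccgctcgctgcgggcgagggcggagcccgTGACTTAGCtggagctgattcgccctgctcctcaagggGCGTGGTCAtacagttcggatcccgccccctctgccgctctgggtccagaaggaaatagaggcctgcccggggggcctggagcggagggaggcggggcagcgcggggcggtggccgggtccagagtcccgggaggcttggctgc
The core was found in 3 of the 10 windows, against 41.3% of 32851 windows of the same length. *Ugdh* held 2 matches, TGACTTAGC beginning 132 bases before the start and GCGTGGTCA beginning 94 bases before it on the other strand. The printed *Blvrb* window held GCCTACTCA, on the other strand and beginning 69 bases before the start, and its second window held 2 more. These letters were absent from the windows of *Nqo1*, *Nqo2*, *Cbr1*, *Cbr3*, *Ephx1* and *Por*, which says nothing of elements farther away. The core of the xenobiotic response element, GCGTG, to which the aryl hydrocarbon receptor binds, was in 6 of the 10 windows and in 32.4% of all windows; of its 3 matches in *Ugdh*, 1 lies within GCGTGGTCA.

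Libraries held 19560535 to 28312207 reads, and each line, its cultures added up, 65206479 to 73065228. *Trp53* lay between 58.6 and 94.1 CPM (reads per 1e+06 reads, after scaling) in the Nf1-p53_DKO lines and between 185 and 247 CPM in the Nf1-Cdkn2a_DKO lines, a log2 fold change of 1.62 (SE 0.23, adjusted p = 0.0361 in edgeR's quasi-likelihood test, adjusted by Benjamini-Hochberg over all genes). This call was lost without any 1 line but Nf1-p53_DKO line 1 (adjusted p 0.0436 to 0.124 over the 6 lines). *Nf1* at 12.7 to 69.9 CPM and *Cdkn2a* at 42.9 to 391 CPM were read in every line, with adjusted p of 0.328 and 0.830 in the same edgeR fit; a count per gene does not show small edits. The 8 mesenchymal markers summed to between 8319 and 22544 CPM in the Nf1-p53_DKO lines and between 10687 and 18394 CPM in the Nf1-Cdkn2a_DKO lines. *Sox10*, which defines Schwann cells, was under 1 CPM in every line. The 5 leukocyte markers under 1 CPM in every line included *Ptprc*, and the 7 leukocyte markers summed to at most 8.25 CPM. The sums of the 5 skeletal muscle markers did not overlap between genotypes, at 54.3 to 323 CPM in the Nf1-p53_DKO lines and 0.606 to 5.24 CPM in the Nf1-Cdkn2a_DKO lines, and of them *Myf5* was called lower in the latter; the part of this difference in the values below was not tested.

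Between genotypes, 1 of the 10 genes passed an adjusted p of 0.05. It was *Ephx2*, the soluble epoxide hydrolase that acts on epoxides of fatty acids, and it was higher in the Nf1-Cdkn2a_DKO lines. Over all 15207 genes tested, 1.8% were called in either direction and 0.638% were called higher in the Nf1-Cdkn2a_DKO lines. For 4 genes, *Ephx2*, *Ephx1*, *Nqo1* and *Blvrb*, every Nf1-Cdkn2a_DKO line lay above every Nf1-p53_DKO line, and among all genes tested the lines did not overlap, in either direction, for 31.4%. The same 4 genes had an unadjusted p under 0.05, as did 22.4% of all genes tested. Of the 10 genes, 6 had a higher and 4 a lower fitted level in the Nf1-Cdkn2a_DKO lines, with a median log2 fold change of 0.54, beside a median of -0.02 over all genes tested. Of all genes tested, 7332 had a higher and 7875 a lower fitted level.

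**Figure D1:**
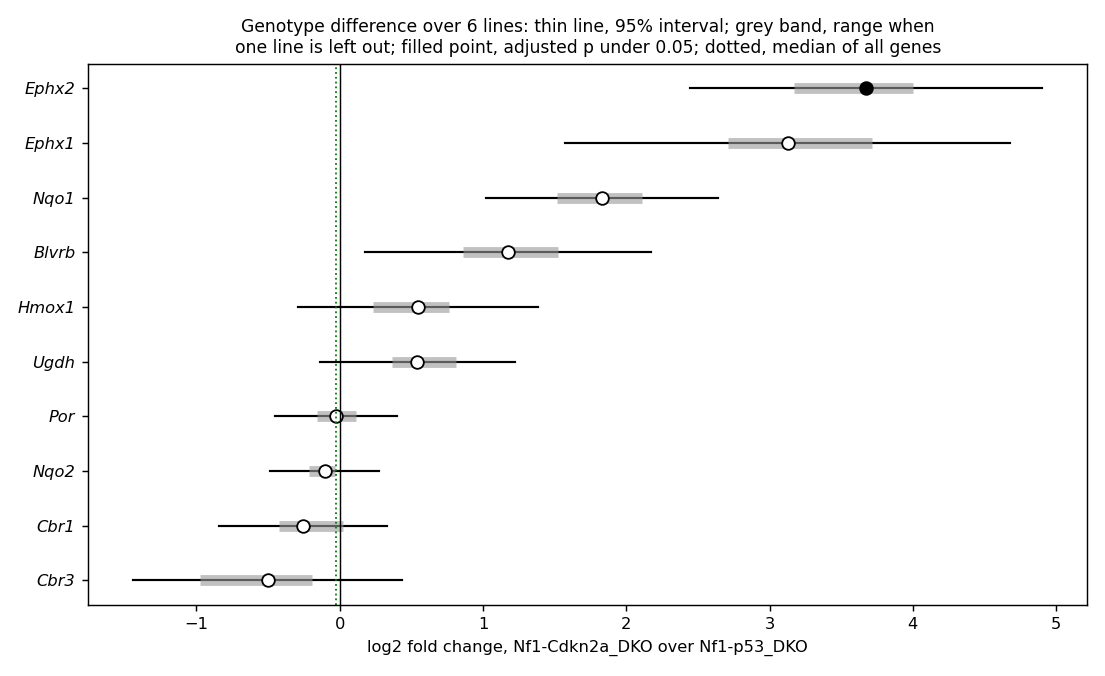
Log2 fold change of each enzyme, Nf1-Cdkn2a_DKO over Nf1-p53_DKO, from the edgeR fit on 6 lines (points), with 95% intervals (thin lines) and the range when each line was left out in turn (grey bands). *Ephx2* at 3.67 is the only filled point (adjusted p under 0.05), the intervals of *Ephx1*, *Nqo1* and *Blvrb* lie above 0, and those of the other 6 enzymes cross it.

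*Nqo1* (ENSMUSG00000003849, chr8:107388225-107403206, GRCm38) encodes the quinone reductase best known as an NRF2 target. It was read at 54.2, 30.6 and 35.6 CPM in Nf1-p53_DKO lines 1, 2 and 3. The Nf1-Cdkn2a_DKO lines 1, 2 and 3 stood at 199.6, 132 and 95.6 CPM. All 3 lines of the latter genotype were above all 3 of the former, and the lowest of them was 1.76-fold above the highest Nf1-p53_DKO line. The means were 40.1 ± 12.4 CPM (SD, n = 3 lines) and 143 ± 52.7 CPM (SD, n = 3 lines), a ratio of 3.55. The fitted log2 fold change was 1.83 (SE 0.34, 95% interval 1.02 to 2.64), and the edgeR adjusted p of 0.0522 missed the threshold. In the order of lines, 4 of the 5 steps between neighbours passed an adjusted p of 0.05 over cultures, and the step between Nf1-p53_DKO lines 2 and 3 did not; when every gene's lines were put in its own order, 26.3% of such steps passed.

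*Nqo2* (ENSMUSG00000046949, chr13:33964687-33988443), a relative of *Nqo1* that takes its electrons from dihydronicotinamide riboside, showed no such separation. Its levels were 37.0, 35.1 and 41.0 CPM in the Nf1-p53_DKO lines and 40.5, 32.6 and 32.1 CPM in the Nf1-Cdkn2a_DKO lines. The ranges overlapped, and none of the 5 steps between neighbouring lines passed the test over cultures. The log2 fold change was -0.11 (SE 0.16, 95% interval -0.49 to 0.27, edgeR adjusted p = 0.730), so a level up to 0.49 lower or 0.27 higher on the log2 scale lies within the interval. Exons of *Serpinb6a* on the opposite strand share 762 bases with those of *Nqo2*, and whether reads were counted by strand is not given in the sources used here, so the *Nqo2* counts are uncertain.

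Per kilobase of exon, *Nqo1* exceeded *Nqo2* in every line. The ratio of their CPM per kb was 3.81, 2.27 and 2.26 in the Nf1-p53_DKO lines and 12.8, 10.6 and 7.77 in the Nf1-Cdkn2a_DKO lines. The lowest ratio of the latter genotype was thus above the highest of the former. With 3 lines a group, an exact permutation test cannot give a two-sided p under 0.1, and none was run on the ratios.

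**Figure D2:**
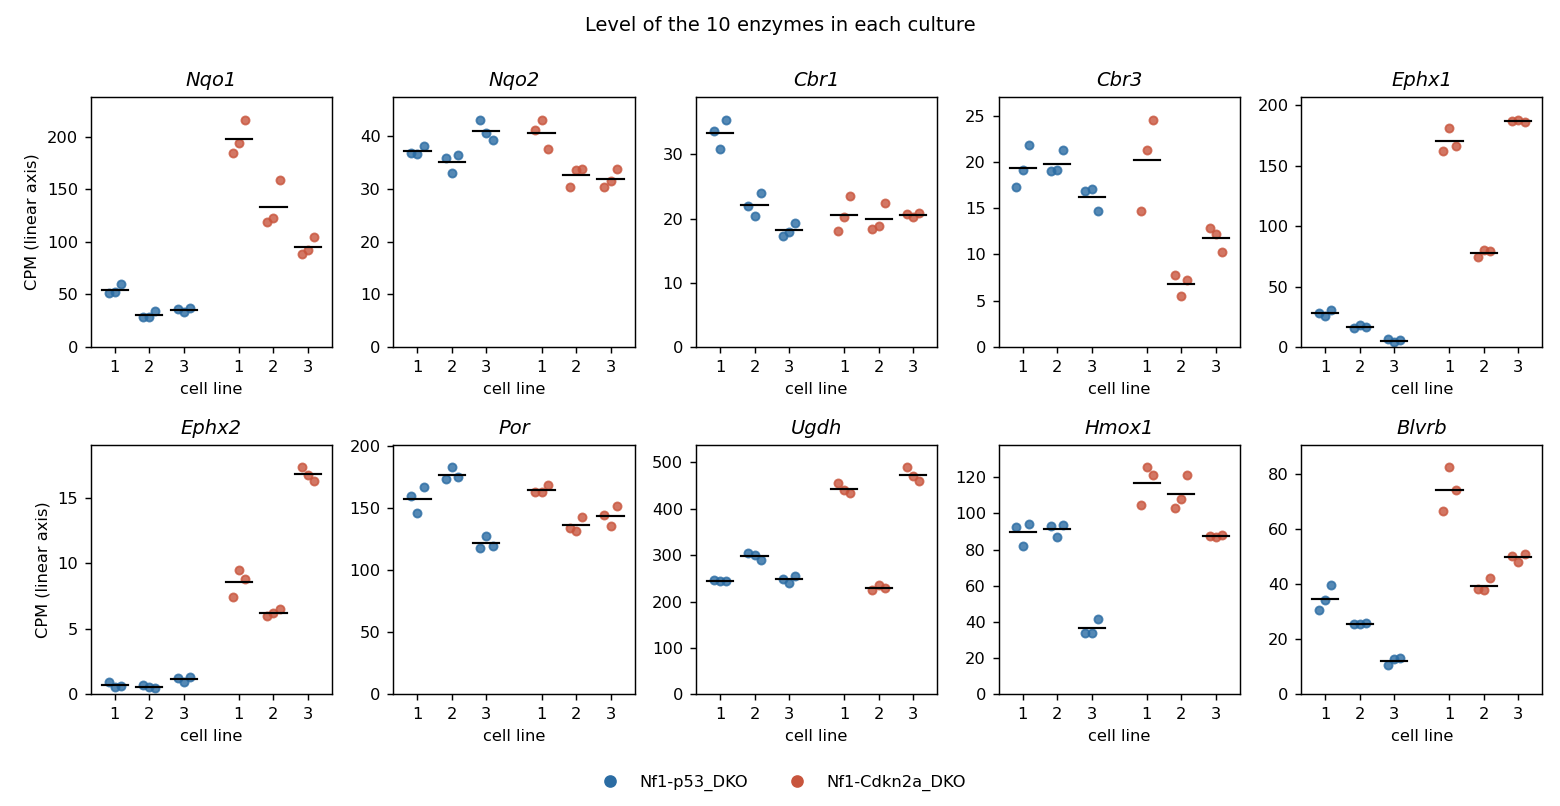
CPM of each enzyme (linear axes from 0) in the 3 cultures of lines 1 to 3 of each genotype, with the mean of a line as a bar. *Nqo1*, *Ephx1* and *Ephx2* lie higher in every Nf1-Cdkn2a_DKO culture than in any Nf1-p53_DKO culture. For *Blvrb*, cultures of Nf1-Cdkn2a_DKO line 2 (37.9 to 42.2 CPM) overlap those of Nf1-p53_DKO line 1 (up to 39.6 CPM). *Hmox1* is low in Nf1-p53_DKO line 3, and *Ugdh* is low in Nf1-Cdkn2a_DKO line 2 beside its sister lines.

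The carbonyl reductases *Cbr1* (ENSMUSG00000051483, chr16:93605853-93610505) and *Cbr3* (ENSMUSG00000022947, chr16:93683215-93690990) are neighbours on the chromosome. CBR1 reduces prostaglandins, quinones and anthracycline drugs, and CBR3 is its close relative with a narrower range of substrates. *Cbr1* stood at 32.9, 22.1 and 18.2 CPM in the Nf1-p53_DKO lines and at 20.8, 19.8 and 20.7 CPM in the Nf1-Cdkn2a_DKO lines. Nf1-p53_DKO line 1 was above all other lines, and the step to it was the only one of 5 to pass the test over cultures. The log2 fold change of *Cbr1* was -0.26 (SE 0.25, edgeR adjusted p = 0.573), and without Nf1-p53_DKO line 1 it was 0.02.

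*Cbr3* was read at 19.3, 19.8 and 16.3 CPM in the Nf1-p53_DKO lines and at 20.4, 6.88 and 11.8 CPM in the Nf1-Cdkn2a_DKO lines. The latter lines spread 2.96-fold and bracketed the former, and of the 5 steps between neighbours only those above Nf1-Cdkn2a_DKO lines 2 and 3 passed over cultures. Its log2 fold change was -0.50 (SE 0.39, 95% interval -1.44 to 0.43, edgeR adjusted p = 0.489), from -0.97 without Nf1-Cdkn2a_DKO line 1 to -0.19 without line 2 of that genotype. The ratio of *Cbr1* to *Cbr3* per kb lay between 0.548 and 0.835 in the Nf1-p53_DKO lines and between 0.501 and 1.41 in the Nf1-Cdkn2a_DKO lines, and only Nf1-Cdkn2a_DKO line 2 had more *Cbr1* than *Cbr3* per kb. Of the 50-base stretches of *Cbr1* exons, 1.85% also occur in *Cbr3* or *Gm5678*, so a small share of its reads could be split among them. The same holds for *Ephx1*, at 1.70%, with *Gm36961*, which shares 72 exon bases on the same strand. It also holds for *Ugdh*, at 1.84%, with many genes, among them *Gm43552*, which shares 158 exon bases on the same strand.

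*Ephx1* (ENSMUSG00000038776, chr1:180976210-181020904) encodes the microsomal epoxide hydrolase, which acts on epoxides of foreign compounds. It was read at 27.8, 16.8 and 5.33 CPM in Nf1-p53_DKO lines 1, 2 and 3 and at 169.9, 77.9 and 188 CPM in the Nf1-Cdkn2a_DKO lines. The lines did not overlap, and the lowest Nf1-Cdkn2a_DKO line was 2.80-fold above the highest Nf1-p53_DKO line. The means of 16.6 ± 11.3 CPM and 145 ± 58.9 CPM (SD, n = 3 lines each) differed 8.73-fold. Its log2 fold change was 3.12 (SE 0.65, 95% interval 1.57 to 4.68), and the edgeR adjusted p of 0.0629 missed the threshold. The spread within a genotype was wide as well, 5.23-fold among the Nf1-p53_DKO lines and 2.41-fold among the others. Of 5 steps between neighbouring lines 4 passed the test over cultures, and the step between Nf1-Cdkn2a_DKO lines 1 and 3 did not.

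*Ephx2* (ENSMUSG00000022040, chr14:66084374-66124500) had the lowest level of the 10 genes and the largest fitted difference. The counts summed over cultures were 55, 43 and 84 in the Nf1-p53_DKO lines and 535, 432 and 1079 in the Nf1-Cdkn2a_DKO lines. As CPM these were 0.709, 0.608 and 1.16 against 8.58, 6.23 and 16.9. The groups were 5.36-fold apart at their nearest lines, and the means of 0.826 ± 0.295 CPM and 10.6 ± 5.59 CPM (SD, n = 3 lines each) differed 12.8-fold. The log2 fold change was 3.67 (SE 0.51, 95% interval 2.44 to 4.90, edgeR adjusted p = 0.0361), the 102nd smallest p of all genes tested. Leaving out any 1 of the 6 lines ended this call, with log2 fold changes of 3.17 to 4.00 and adjusted p of 0.0578 to 0.119; the higher level in the Nf1-Cdkn2a_DKO lines stood in each case.

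Single cultures of *Ephx2* ranged from 0.488 to 1.31 CPM in the Nf1-p53_DKO lines and from 5.95 to 17.3 CPM in the Nf1-Cdkn2a_DKO lines. Per kb, *Ephx1* exceeded *Ephx2* in every line, and their ratio lay between 5.84 and 50.0 in the Nf1-p53_DKO lines and between 14.2 and 25.2 in the Nf1-Cdkn2a_DKO lines. Over cultures, 4 of the 5 steps in the order of *Ephx2* passed, all but that between Nf1-p53_DKO lines 1 and 2. Nf1-p53_DKO line 3 set the low end of the ratio, since it had the least *Ephx1* and the most *Ephx2* of its genotype.

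**Figure D3:**
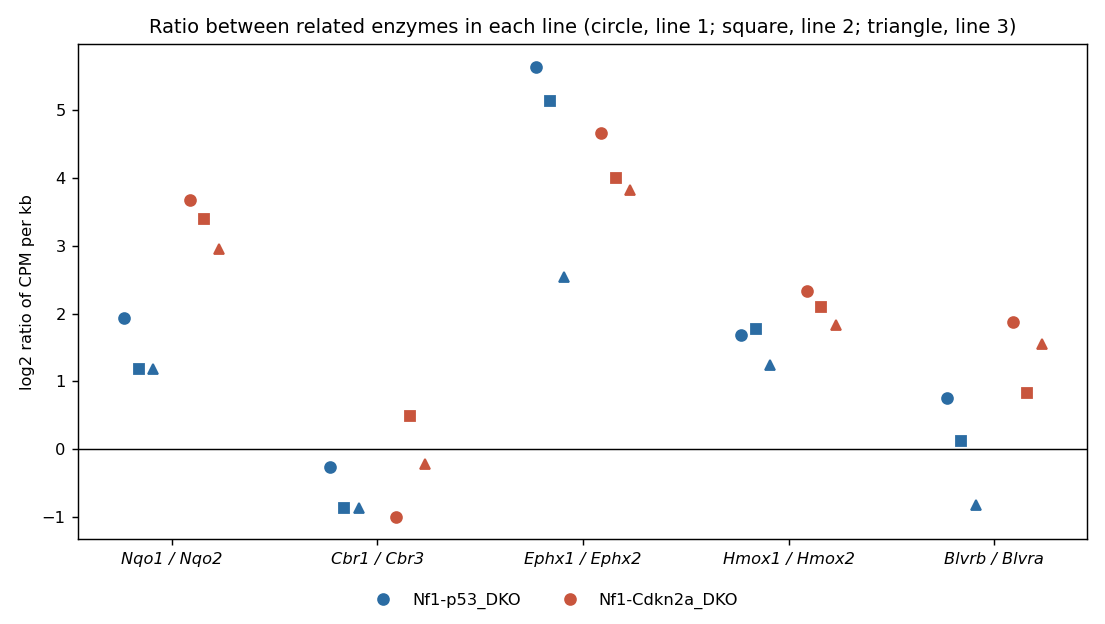
Log2 ratio of CPM per kb between related enzymes, 1 point for each line, with lines 1 to 3 as circle, square and triangle. The genotypes separate for *Nqo1* over *Nqo2*, and by a small margin for *Hmox1* over *Hmox2* and *Blvrb* over *Blvra*. Before the log, the nearest lines of Nf1-p53_DKO and Nf1-Cdkn2a_DKO had ratios of 3.43 and 3.55 for *Hmox1*, and of 1.69 and 1.78 for *Blvrb*. The genotypes overlap for *Cbr1* over *Cbr3* and *Ephx1* over *Ephx2*.

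*Por* (ENSMUSG00000005514, chr5:135670033-135735326), the reductase that hands electrons from NADPH to microsomal P450 enzymes and to heme oxygenase, spread less over the 6 lines than any of these genes but *Nqo2*. Its values were 156, 177 and 122 CPM in the Nf1-p53_DKO lines and 165.5, 136 and 145 CPM in the Nf1-Cdkn2a_DKO lines. The ranges overlapped, with a log2 fold change of -0.03 (SE 0.18, 95% interval -0.45 to 0.40, edgeR adjusted p = 0.944). The lowest and highest of the 6 lines were 1.45-fold apart, and the step above Nf1-p53_DKO line 3 was the only one of 5 to pass over cultures.

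*Ugdh* (ENSMUSG00000029201, chr5:65413221-65435949) makes UDP-glucuronate, the sugar donor for glucuronidation and for glycosaminoglycan chains. Its levels were 243, 299 and 248 CPM in the Nf1-p53_DKO lines and 443, 231 and 476 CPM in the Nf1-Cdkn2a_DKO lines. Nf1-Cdkn2a_DKO lines 1 and 3 were above every Nf1-p53_DKO line, and line 2 was below all of them, though it did not differ over cultures from Nf1-p53_DKO line 1, its neighbour. The log2 fold change was 0.54 (SE 0.28, 95% interval -0.14 to 1.22, edgeR adjusted p = 0.312). Cultures of a line agreed closely, with a median coefficient of variation of 2.49%, and lines accounted for 99.5% of the variance among the Nf1-Cdkn2a_DKO cultures.

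*Hmox1* (ENSMUSG00000005413, chr8:75093621-75100589), the inducible heme oxygenase, was read at 88.4, 91.1 and 36.5 CPM in the Nf1-p53_DKO lines. The Nf1-Cdkn2a_DKO lines stood at 117, 110.3 and 87.9 CPM, so that the ranges overlapped by a small margin and Nf1-p53_DKO line 3 was apart from the rest. Over cultures, Nf1-p53_DKO lines 1 and 2 and Nf1-Cdkn2a_DKO line 3 did not differ as neighbours, nor did Nf1-Cdkn2a_DKO lines 1 and 2. The log2 fold change was 0.55 (SE 0.35, 95% interval -0.29 to 1.38, edgeR adjusted p = 0.403), and 0.23 without Nf1-p53_DKO line 3. Relative to *Hmox2*, the constitutive form, *Hmox1* stood 3.22-, 3.43- and 2.37-fold higher per kb in the Nf1-p53_DKO lines and 5.06-, 4.29- and 3.55-fold higher in the Nf1-Cdkn2a_DKO lines. For *Hmox2* itself the fitted difference was 0.08 on the log2 scale (adjusted p = 0.866).

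*Blvrb* (ENSMUSG00000040466, chr7:27447978-27466144) encodes the biliverdin reductase that also reduces flavins. It was read at 34.7, 25.7 and 12.2 CPM in the Nf1-p53_DKO lines and at 74.2, 39.3 and 50.0 CPM in the Nf1-Cdkn2a_DKO lines. The groups did not overlap, but their nearest lines were 1.13-fold apart and did not differ over cultures (adjusted p = 0.108 in edgeR). The means of 24.2 ± 11.3 CPM and 54.5 ± 17.9 CPM (SD, n = 3 lines each) differed 2.25-fold, with a log2 fold change of 1.17 (SE 0.42, 95% interval 0.17 to 2.17, edgeR adjusted p = 0.170). *Blvra*, the biliverdin reductase that gives the main form of bilirubin, differed by -0.15 on the log2 scale (adjusted p = 0.667), and the ratio of *Blvrb* to *Blvra* per kb was 0.567 to 1.69 in the Nf1-p53_DKO lines and 1.78 to 3.68 in the Nf1-Cdkn2a_DKO lines.

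Compared per length of exon, the genes with the highest means were not the same in the 2 genotypes. In the Nf1-p53_DKO lines *Hmox1* led with 41.1 CPM per kb (SD 17.6), followed by *Ugdh* with 39.0 (SD 4.54) and *Por* with 37.7 (SD 6.92), whose levels did not differ beyond their spread. In the Nf1-Cdkn2a_DKO lines *Nqo1* with 91.8 CPM per kb (SD 33.9) and *Ephx1* with 74.5 (SD 30.2) had the highest means, before *Hmox1* with 60.0 (SD 8.73) and *Ugdh* with 56.8 (SD 19.7). The spreads of these 4 overlapped, so their order is not settled: *Ephx1* was below *Hmox1* in line 2, and *Nqo1* below *Ugdh* in line 3. *Ephx2* was last in both, with 0.333 CPM per kb (SD 0.119) and 4.25 CPM per kb (SD 2.25).

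**Figure D4:**
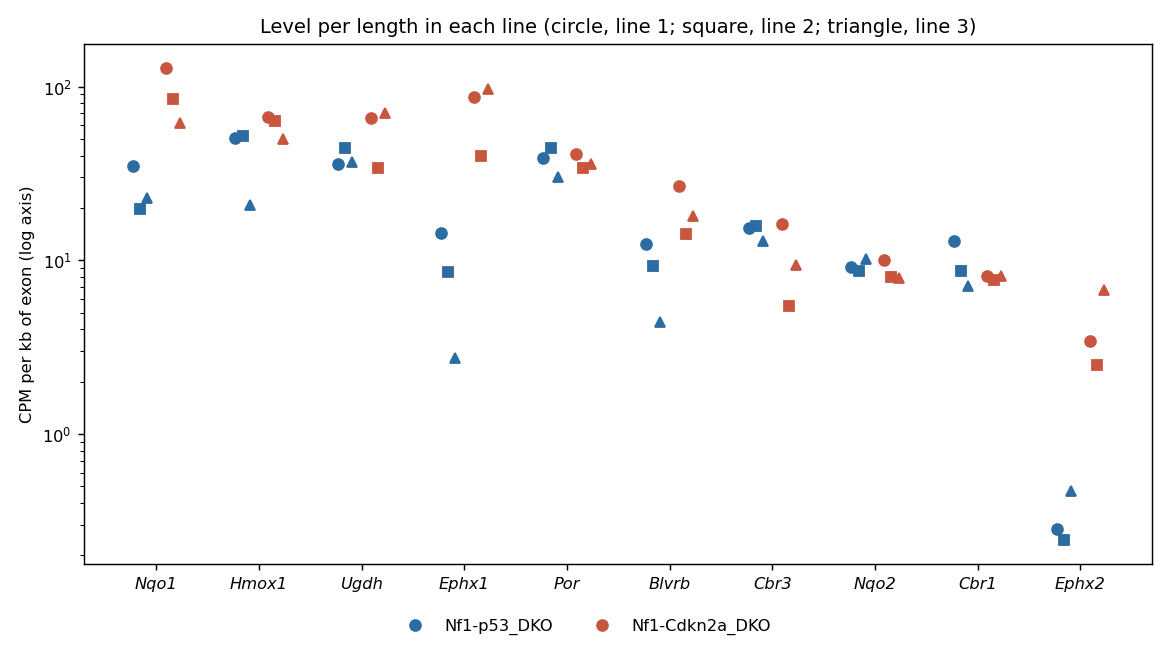
CPM per kb of exon (log axis) of each enzyme, with lines 1 to 3 as circle, square and triangle; genes are ordered by their mean over the 6 lines. *Nqo1* and *Ephx1* lie below *Por* in every Nf1-p53_DKO line and above it in every Nf1-Cdkn2a_DKO line, and *Ephx2* is last in both.

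Lines of the same genotype differed too. Among the Nf1-p53_DKO lines, 9 of the 10 genes passed the test of any difference between lines over cultures, all but *Cbr3* (edgeR adjusted p = 0.157), beside 73.2% of all genes. Among the Nf1-Cdkn2a_DKO lines 9 of 10 passed, all but *Cbr1* (edgeR adjusted p = 0.874), beside 56.8% of all genes. These tests measure only the spread between cultures of a tumor line. Nf1-p53_DKO line 3 was the lowest of its genotype for 6 genes, *Blvrb*, *Cbr1*, *Cbr3*, *Ephx1*, *Hmox1* and *Por*, and the highest for *Ephx2* and *Nqo2*. In the other genotype line 2 was lowest for 7 genes and highest for none. Line 1 was highest for 7 and lowest for none, while *Ephx1*, *Ephx2* and *Ugdh* were highest in line 3. These ranks take in genes whose lines did not differ over cultures, *Cbr3* in the former genotype and *Cbr1* in the latter. Neighbouring lines that did not differ were ranked too, and such ranks were not counted over all genes.

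The known regulators of these genes were looked at beside them, in a list of 14 genes for the NRF2, BACH1 and aryl hydrocarbon receptor systems. In this list 2 genes were called, both higher in the Nf1-Cdkn2a_DKO lines, and 10 had a higher and 4 a lower fitted level. Over all 15207 genes tested, 1.8% were called in either direction and 0.638% were called higher. By fitted level, 7332 of all genes were higher and 7875 lower. An unadjusted p under 0.05 was reached by 5 of the 14, beside 22.4% of all genes tested. *Ahr*, the aryl hydrocarbon receptor, was read at 30.3, 10.5 and 15.5 CPM in the Nf1-p53_DKO lines and at 111, 108 and 138 CPM in the others, a log2 fold change of 2.67 (SE 0.40, edgeR adjusted p = 0.0406). *Arnt*, the partner with which AHR binds DNA and which is named after its values were seen, stood the other way, at 93.6, 79.8 and 81.5 CPM against 49.5, 47.9 and 58.6 CPM, with a log2 fold change of -0.71 (SE 0.14, edgeR adjusted p = 0.0608). *Mafk*, a small Maf protein that pairs with NRF2 and with BACH1, stood at 28.7, 33.6 and 24.7 CPM against 51.4, 61.4 and 60.3 CPM, a log2 fold change of 0.99 (SE 0.17, edgeR adjusted p = 0.0470). The call of *Mafk* was lost without any 1 of the 6 lines (adjusted p 0.0718 to 0.144), and that of *Ahr* without any line but Nf1-p53_DKO line 1 (adjusted p 0.0323 to 0.124 over the 6 lines).

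*Nfe2l2*, which encodes NRF2, was read at 129, 122 and 131 CPM in the Nf1-p53_DKO lines and at 234, 196 and 269.7 CPM in the Nf1-Cdkn2a_DKO lines. The lines did not overlap, and its log2 fold change was 0.87 (SE 0.16, edgeR adjusted p = 0.0512). It was called without the filter on low counts (edgeR adjusted p = 0.0491), and by DESeq2 on the 6 lines and limma-voom, and it was not called whichever line was left out (edgeR adjusted p 0.0812 to 0.154). *Keap1*, the adaptor that marks NRF2 for degradation, had a log2 fold change of -0.10 (SE 0.21, adjusted p = 0.810), and *Bach1* one of 0.54 (SE 0.25, adjusted p = 0.259). *Bach2* was the lowest of the list, at -1.08 (SE 0.69, adjusted p = 0.400), a value that rests on Nf1-p53_DKO line 2, at 7.28 CPM, and is -0.19 without it. NRF2 is controlled largely at the level of protein, which these counts do not measure.

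**Figure D5:**
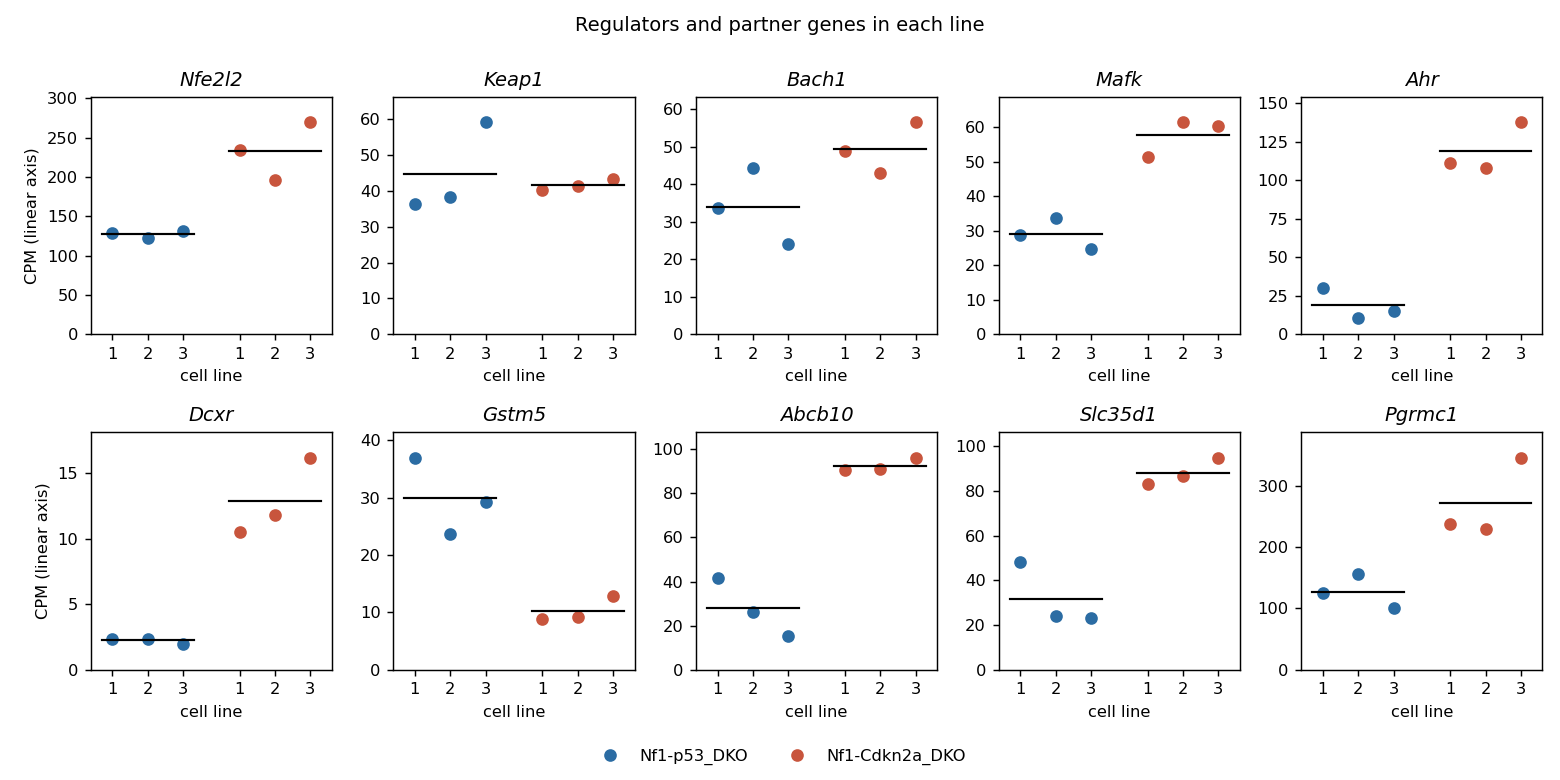
CPM (linear axes from 0) in each line of 5 regulators (*Nfe2l2*, *Keap1*, *Bach1*, *Mafk*, *Ahr*) and 5 partner genes, with the mean of a genotype as a bar. The Nf1-Cdkn2a_DKO lines lie above the Nf1-p53_DKO lines for *Nfe2l2*, *Mafk*, *Ahr*, *Dcxr*, *Abcb10*, *Slc35d1* and *Pgrmc1* and below them for *Gstm5*, while *Keap1* and *Bach1* overlap. *Mafk*, *Ahr*, *Dcxr* and *Gstm5* were drawn because they were called, and *Abcb10*, *Slc35d1* and *Pgrmc1* because they were highest in their lists. The lowest genes of those lists, *Hebp2*, *Has1* and *Pgrmc2*, are not drawn, and their Nf1-Cdkn2a_DKO lines lie below the Nf1-p53_DKO lines.

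Among 15 other genes of quinone and carbonyl reduction, 1 was called, beside 1.8% of all genes tested. An unadjusted p under 0.05 was reached by 2 of the 15, beside 22.4% of all genes tested. *Dcxr*, which reduces diacetyl and xylulose, was read at 2.35, 2.36 and 2.00 CPM in the Nf1-p53_DKO lines and at 10.6, 11.8 and 16.2 CPM in the Nf1-Cdkn2a_DKO lines, with a log2 fold change of 2.52 (SE 0.28, edgeR adjusted p = 0.0248). Its call was lost without Nf1-p53_DKO line 2 or without any 1 of the Nf1-Cdkn2a_DKO lines (adjusted p 0.0451 to 0.102 over the 6 lines). The lowest of the list was *Cbr2*, at -0.96 (SE 0.49, adjusted p = 0.30). The median log2 fold change of the list was 0.16.

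Of 15 epoxide hydrolases and P450 enzymes 14 were tested and none was called by edgeR, with 7 at an unadjusted p under 0.05 (22.4% among all genes tested, here and in the lists below). *Cyp26b1*, which degrades retinoic acid, was the highest at 3.58 (SE 0.94, adjusted p = 0.0970), with 0.940, 1.43 and 0.360 CPM against 11.7, 1.76 and 19.1 CPM. *Cyp7b1*, an oxysterol hydroxylase, was the lowest at -3.71 (SE 1.02, adjusted p = 0.105), and Nf1-p53_DKO line 2 at 5.27 CPM stood far above the other 5 lines; without it the value is -2.13. Of the other epoxide hydrolases in the list, *Ephx3* and *Ephx4* were under 1 CPM in every line. *Lta4h*, also an epoxide hydrolase, was named after its values were seen. It was read at 79.9 to 85.35 CPM in the Nf1-p53_DKO lines and at 101 to 158 CPM in the others. Its log2 fold change was 0.59 (SE 0.19, edgeR adjusted p = 0.145). In the list 6 genes had a higher and 8 a lower fitted level. Among 11 partners of POR in electron transfer none was called by edgeR, and 3 had an unadjusted p under 0.05. Their extremes were the heme-binding proteins *Pgrmc1*, at 1.096 (SE 0.24, adjusted p = 0.0694), and *Pgrmc2*, at -0.59 (SE 0.22, adjusted p = 0.176), which were 99.98 to 156 against 229 to 346 CPM and 104 to 172 against 77.1 to 93.4 CPM.

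None of 18 genes of heme synthesis, transport and breakdown was called by edgeR, with 3 at an unadjusted p under 0.05 and a median log2 fold change of 0.01. *Abcb10*, a mitochondrial transporter linked to heme synthesis, was the highest, with 41.8, 26.2 and 15.4 CPM in the Nf1-p53_DKO lines and 90.5, 90.8 and 96.2 CPM in the others (log2 fold change 1.73, SE 0.35, adjusted p = 0.0599; called without Nf1-p53_DKO line 1, adjusted p = 0.0460). *Hebp2* was the lowest at -2.20 (SE 0.59, adjusted p = 0.0992). Of 14 genes that supply or use UDP-glucuronate 13 were tested and none was called by edgeR, with 5 at an unadjusted p under 0.05. *Slc35d1*, which carries UDP-glucuronate into the endoplasmic reticulum, stood at 23.0 to 48.2 against 83.2 to 95.03 CPM (log2 fold change 1.47, SE 0.31, adjusted p = 0.0640; called without Nf1-p53_DKO line 1, adjusted p = 0.0323), and *Has1*, a hyaluronan synthase, at 10.1 to 37.9 against 1.18 to 5.04 CPM (-2.48, SE 0.73, adjusted p = 0.120).

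Of 18 conjugating transferases, which attach glutathione, sulfate, methyl or acetyl groups, 1 was called and it was lower in the Nf1-Cdkn2a_DKO lines. Over all genes tested, 1.8% were called in either direction. *Gstm5*, a glutathione transferase, was read at 37.0, 23.7 and 29.3 CPM in the Nf1-p53_DKO lines and at 8.79, 9.14 and 12.8 CPM in the others (log2 fold change -1.55, SE 0.25, edgeR adjusted p = 0.0465), and the call was lost without any 1 of the 6 lines (adjusted p 0.0734 to 0.1498). In the list 6 genes had a higher and 12 a lower fitted level, and 6 had an unadjusted p under 0.05. The summed level went the other way, at 579.5 to 780.9 CPM in the Nf1-p53_DKO and 1148.9 to 1414.9 CPM in the Nf1-Cdkn2a_DKO lines. *Gsto1*, named after its values were seen, had the highest means, 240 and 806.5 CPM (log2 fold change 1.75, SE 0.38, edgeR adjusted p = 0.0696). *Mgst3*, a microsomal transferase, was the highest at 1.80 (SE 0.61, adjusted p = 0.158; 2.79 and called without Nf1-p53_DKO line 1, adjusted p = 0.0462), and *Gstk1*, of mitochondria and peroxisomes, the lowest at -2.58 (SE 0.69, adjusted p = 0.101). *Mgst3* and *Gstk1* are both glutathione transferases, as are most genes of the list.

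*Ephx2* was the gene with the largest absolute fold change and also the largest SD over the 6 lines, and the genes most like it over the 18 cultures were sought among 9142 genes with a mean of at least 10 CPM. The 5 with the highest Pearson correlation of log2 CPM were *Stambpl1* (0.984), *B3gnt1* (0.977), *Wbp1l* (0.974), *Nfe2l2* (0.974) and *Arhgef17* (0.969). The correlation was above 0.9 for 178 genes. The 18 points come from 6 tumors that fall into the same genotypes, so any gene that differs between genotypes takes part in this ranking, and no test was made of it.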

How the data were processed

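Total RNA of 18 cultures was sequenced, and library preparation, sequencing and primary analysis were done by Novogene. The deposited values are raw read counts, whole numbers for each gene, which the authors did not normalize; all 18 count columns were used. The submitters' processing notes name CASAVA, STAR 2.5, DESeq2 1.14.1 and GRCm38/mm10, and the counting tool, its strand setting and its annotation are not given in the sources used here. Reads shared by similar or overlapping genes could therefore fall to either of them.

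The 3 cultures of each line were added up. The filterByExpr function of edgeR (minimum count 10, minimum total 15) chose the genes, which were scaled by TMM (factors 0.941 to 1.062) and tested with edgeR 4.0.16 quasi-likelihood fits (limma 3.58.1, R 4.3.3), 3 lines against 3, two-sided, with Benjamini-Hochberg adjustment over all genes. Lines were compared in a fit of the 18 cultures. Intervals are 95%. CPM per kb used exon lengths of GENCODE M21. Correlations used log2 of CPM plus 0.5 (Python 3.11.15, numpy 2.4.6, pandas 2.3.3, matplotlib 3.10.9). The fits were tested on simulated data.

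The 10 genes, the partner and marker lists and the tests were chosen with earlier results of these data known. Named are the 10 genes, the targeted genes, all called genes and the highest and lowest gene of each partner list. Also named are *Nfe2l2*, *Keap1* and *Bach1*, and the genes most like *Ephx2*. A few markers and relatives of the 10 genes, *Arnt*, *Gsto1* and *Lta4h* were named for the comparison they belong to after their values were seen. Groups of markers of 7 cell types were checked, of which endothelial markers summed to at most 2.50 CPM, with *Tek* called lower in the Nf1-Cdkn2a_DKO lines, erythroid markers to at most 1.47 CPM, Schwann markers to 2.83 to 68.3 CPM in the Nf1-p53_DKO and 1.35 to 2.50 CPM in the Nf1-Cdkn2a_DKO lines, and epithelial markers to 2.67 to 739 CPM and 8.25 to 611 CPM. All 154 list entries were found, 3 of them by identifier. All 18 pairs of cultures from the same line differed beyond sampling noise (chi-square per degree of freedom 3.57 to 29.15). Line numbers name separate tumors and did not pair the samples (correlation of deviations -0.134 to -0.0857). Alternatives were other scalings, filters and tests, cultures as samples, replicate blocks and each line or culture left out.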

Additional observations from a re-analysis of the deposited data

How the results depend on the processing

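Of the 10 genes, 1 (*Ephx2*) was called between genotypes, and 274 genes in all. Other scalings and a filter of at least 10 counts in every line left the count of the 10 at 1; without a filter, and with DESeq2 on the 6 lines, 3 were called (*Nqo1*, *Ephx1*, *Ephx2*), with limma-voom and the line as a random effect 4 (with *Blvrb*), and with the 18 cultures as separate samples 6 in edgeR and in DESeq2 (with *Ugdh* and *Hmox1*). Tests on 18 cultures count cultures of a tumor as separate. Over all genes the counts were 424 with raw totals, 2060 with DESeq2 on 6 lines, 2173 with limma-voom, 6096 with edgeR on 18 cultures and 7186 with DESeq2 on 18 cultures. A replicate block of culture number on the 18 cultures gave 5 of the 10 and 5681 in all, and a replicate block of line number, whose numbers share nothing else, gave 0 of the 10 and 0 in all, with 2740 genes at an unadjusted p under 0.05. Leaving out 1 line at a time, 0 of the 10 were called (0 to 0), and 0 to 172 genes in all; without Nf1-Cdkn2a_DKO line 1, where edgeR called 0, 2668 had an unadjusted p under 0.05. The share of calls that were higher in the Nf1-Cdkn2a_DKO lines was 35.4%, but 20.5% with raw totals, 46.8% and 43.1% with edgeR and DESeq2 on 18 cultures, 46.3% with the culture block and 52.7% with limma-voom; raw totals moved the median log2 fold change of all genes from -0.02 to -0.16. No scaling changed the direction of any of the 10 genes. With lines left out, log2 fold changes ran from -0.42 to 0.0206 for *Cbr1*, from -0.16 to 0.11 for *Por*, from -0.23 to 0.16 for *Keap1* and from -0.18 to 0.81 for *Cdkn2a*, so that their direction turned; *Nqo1* ran from 1.51 to 2.11, *Ephx1* from 2.71 to 3.72 and *Blvrb* from 0.86 to 1.53. Counts of genes that differ among lines of a genotype stayed within 1.5 times under every alternative run, with 8 or 9 of the 10 called among the Nf1-p53_DKO lines and 9 among the others. The cause of these shifts was not tested. Having 3 lines a genotype limits the power. Log2 fold changes as large as 3.12 for *Ephx1* and -3.71 for *Cyp7b1* were not called in the main fit. The counts of *Ephx2* in the Nf1-p53_DKO lines were low, 43 to 84 for a line. How far they limit the precision of its fold change was not tested. Its SE was 0.51, and that of *Ephx1*, with higher counts, was 0.65.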
